A study of Rattus norvegicus with 20 samples.

Results

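The X-linked miR-322, miR-503 and miR-351 cluster was followed through 2 stages of rat spermatogenesis, after chronic cyclophosphamide and after saline. Its members were taken by name, as every rat microRNA (miRNA) on the array with the stem miR-322, miR-351, miR-450a, miR-503 or miR-542, which gave 10 mature forms of 677 rat miRNAs on the array. These are the 5p and the 3p arm of each of 5 hairpins, and they were read by 22 probes. The groups were round spermatids of rats given cyclophosphamide, round spermatids of rats given saline, pachytene spermatocytes of rats given cyclophosphamide and pachytene spermatocytes of rats given saline, with 5 one-colour arrays each. All animals were Sprague-Dawley males, gavaged with cyclophosphamide at 6 mg/kg or with saline on 6 days a week for 4 weeks. Cyclophosphamide is an alkylating anticancer drug. Pachytene spermatocytes are in meiotic prophase, round spermatids are the early haploid cells formed by meiosis, and both were enriched by sedimentation at unit gravity, so each sample is a cell fraction that can hold other cells. Ages were not given in the sources used here.

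A miRNA hairpin is cut into a 5p and a 3p strand, and usually one of the strands is loaded onto an Argonaute protein, which then represses messenger RNAs that pair with the seed, bases 2 to 8 of the strand. The miR-322 and miR-503 hairpins form a conserved mammalian cluster whose human counterpart is named miR-424 and miR-503, and their 5p strands are known for lowering cyclins and other cell cycle genes, as the miR-15 and miR-16 family does. In male meiosis the X and Y chromosomes are silenced at the pachytene stage and stay largely repressed in round spermatids, although many X-linked miRNAs of the testis are known to be transcribed during that silencing.

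All 10 mature forms were found in the RefSeq miRNA table of the rat genome build GRCr8. Their 5 hairpins lie on the minus strand of chromosome X within 5309 bases, at chrX:137720933-137726241. In the direction of transcription the order is Mir322, Mir503, Mir351, Mir542 and Mir450a1, and Mir503, Mir351, Mir542 and Mir450a1 start 315, 1045, 3987 and 5218 bases after the first base of the Mir322 hairpin. The annotation places the Mir322, Mir503 and Mir351 hairpins within the long noncoding gene LOC102550366. The nearest coding genes on the 2 sides are Hprt1, an enzyme of purine salvage, and Plac1, a gene known from placenta. The hairpin Mir450b-1 lies beside Mir450a1 and had no probe of its own on the array.

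**Figure D1:**
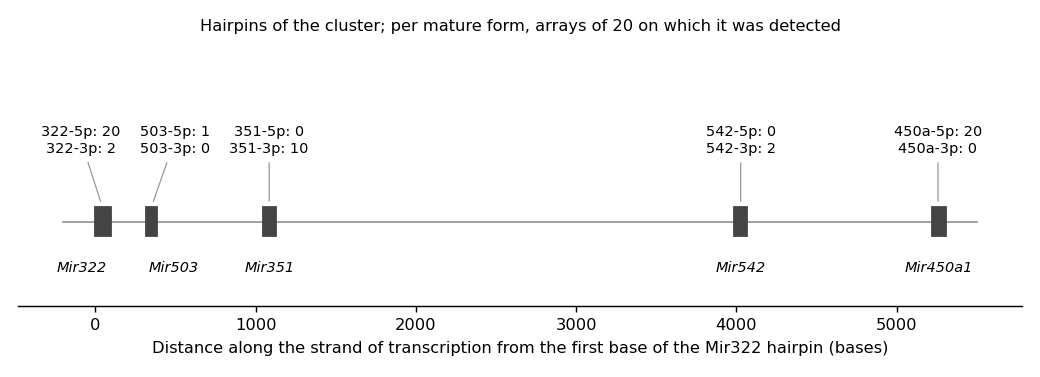
Dark boxes are the 5 hairpins, to scale, against the distance in bases from the first base of the Mir322 hairpin along the strand of transcription. The numbers above each hairpin count the arrays, of 20, on which each arm was detected: miR-322-5p and miR-450a-5p reached 20, miR-351-3p reached 10 and no other arm was above 2.

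The mature strands that the array could measure are shown first, since the results turn on them, with the seed in capitals.
miR-322-5p: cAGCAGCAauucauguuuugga
miR-351-3p: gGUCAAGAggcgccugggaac
miR-450a-5p: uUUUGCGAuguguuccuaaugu

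The next strands show what the members share with other miRNAs. The seed of miR-322-5p is that of miR-15b-5p, miR-16-5p, miR-195-5p and miR-497-5p, which are encoded on autosomes, while the seed of miR-503-5p is another one.
miR-503-5p: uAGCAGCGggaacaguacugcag
miR-16-5p: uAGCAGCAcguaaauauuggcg
miR-195-5p: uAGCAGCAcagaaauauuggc
miR-497-5p: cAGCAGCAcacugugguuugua
miR-351-5p has the seed of miR-125a-5p and miR-125b-5p, and miR-351-3p shares its seed with no other of the 724 mature forms in the table.
miR-351-5p: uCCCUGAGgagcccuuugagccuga
miR-125b-5p: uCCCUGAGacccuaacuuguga
The 10 members have 10 different seeds. Without a probe of its own, miR-450b-5p has the seed of miR-450a-5p and is identical to it over the first 20 bases. Whether the probe for miR-450a-5p also reads miR-450b-5p was not tested, so that signal cannot be assigned to Mir450a1 alone.
miR-450b-5p: uUUUGCGAuguguuccuaaua

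In the hairpin of miR-351, printed with the 3p strand in capitals, the 5p strand occupies bases 16 to 40 and the 3p strand bases 56 to 76.
miR-351 hairpin: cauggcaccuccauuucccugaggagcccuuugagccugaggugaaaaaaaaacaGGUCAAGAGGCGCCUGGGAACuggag

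Over the 20 arrays, between 181 and 281 miRNAs were detected, and precision is limited by having 5 arrays a group. The array numbers in the labels were taken as rat numbers, and nothing further states that the replicates are separate animals, so p-values measure the spread between these samples. Of the arms of miR-34b, miR-34c and miR-449a, which mark male germ cells from meiosis onward, 6 of 6 were tested, and their summed signal lay between 23000 and 35400 in cyclophosphamide spermatids, between 15700 and 31000 in saline spermatids, between 15600 and 24200 in cyclophosphamide pachytene cells and between 15800 and 24000 in saline pachytene cells. These ranges overlap, so the sums cannot check the labels of cell type or treatment. Of these arms, miR-449a-3p was detected on every pachytene array and on no spermatid array. It was the 1 arm called lower in spermatids (limma, adjusted p under 0.05) in each treatment, with spermatid means at the floor of 3.61. Going the other way, 2 arms were called higher in cyclophosphamide and 1 in saline rats. miR-34b-5p was higher by 0.86 ± 0.19 and 0.63 ± 0.19 (SE, limma, adjusted p = 0.000833 and 0.0099). Among all 217 tested miRNAs, 30.9% and 26.3% were called higher and 23% and 22.1% lower, in the same order. The arrays lie on 3 slides, and slide 3, scanned apart from the others, holds only round spermatids, namely rat 26 of the cyclophosphamide group and rats 17, 25 and 28 of the saline group. On slide 1 the only saline spermatid array is that of rat 15. On slide 2 the only spermatid arrays are those of cyclophosphamide rat 25 and saline rat 16. Within-slide differences that use these arrays rest on a single spermatid array of that treatment. The saline pachytene array of rat 26 detected the most miRNAs. Markers of muscle, peritubular and mesenchymal cells were higher in the spermatid fractions, as described with miR-450a-5p. A lower signal in a fraction can come from fewer cells of a type or from less RNA per cell, which these samples cannot tell apart.

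Of the 10 mature forms, 3 were measurable. Agilent's software detected miR-322-5p and miR-450a-5p on all 20 arrays, and miR-351-3p on the 10 pachytene arrays and on 0 of the 10 spermatid arrays. The arm detected in the miR-351 hairpin was therefore the 3p arm, with 0 of 20 detections for miR-351-5p, whereas in the miR-322 and miR-450a hairpins it was the 5p arm.

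The other 7 forms were scarcely seen. miR-503-5p, which is transcribed beside miR-322, was detected on 1 array, that of saline pachytene rat 26, and miR-503-3p on none. miR-322-3p and miR-542-3p, the second known in human cells for lowering the survival protein survivin, were each detected on 2 arrays, those of saline spermatid rat 25 and saline pachytene rat 26. miR-351-5p, miR-450a-3p and miR-542-5p were detected on none. Over the 16 probes of these 7 forms, 18 of 2800 spots were well above background, and the mean signal of a probe on an array never passed 9.78, against a floor of 12.17 used for the log values. Under a stricter call, which asked that at least 50% of a probe's spots be well above background, none of the 7 forms was present on any array, and miR-450a-5p was present on 19. These 7 forms have no level here and were not tested.

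**Figure D2:**
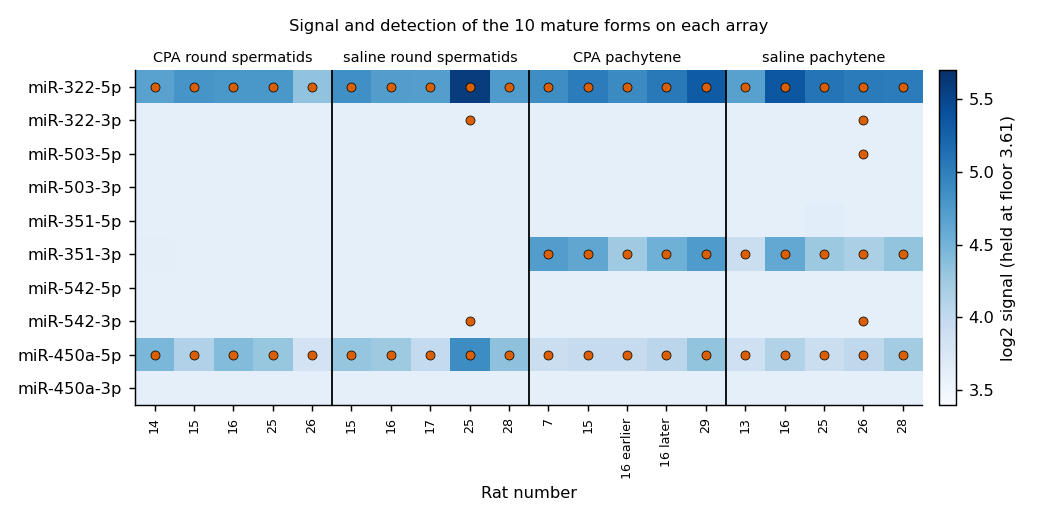
Rows are the 10 mature forms and columns the 20 arrays by rat number, with cyclophosphamide (CPA) left of saline in each cell type. Colour is the log2 signal, held at the floor of 3.61, and a dot marks detection: miR-322-5p and miR-450a-5p carry dots throughout, and miR-351-3p carries them on the 10 pachytene arrays.

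miR-351-3p parted the cell types. Its log2 signal was 3.63 in cyclophosphamide spermatids of rat 14 and 3.61, the floor, in rats 15, 16, 25 and 26, and it was 3.61 in all 5 saline spermatid samples. In pachytene cells it was 4.72, 4.63, 4.25, 4.53 and 4.74 after cyclophosphamide (rats 7 and 15, the earlier and the later rat 16, and rat 29) and 3.92, 4.61, 4.27, 4.17 and 4.32 after saline (rats 13, 16, 25, 26 and 28). Every pachytene sample lay above every spermatid sample. The share of all tested miRNAs that part the cell types in this way is not given here.

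Before the floor was set, the scaled signal of miR-351-3p ran from 2.94 to 7.33 in cyclophosphamide spermatids and from 2.12 to 4.54 in saline spermatids. In pachytene cells it ran from 19.1 to 26.9 after cyclophosphamide and from 15.2 to 24.4 after saline. In spermatids 1 of 50 spots was well above background after cyclophosphamide and 0 of 50 after saline, while in pachytene cells 50 of 50 and 49 of 50 were. The second probe for miR-351-3p was dim everywhere, with 5 of 50 spots well above background in each pachytene group and 0 of 50 in each spermatid group.

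Because spermatids gave only a bound, miR-351-3p was at least 1.6-fold lower in spermatids than in pachytene cells after cyclophosphamide, and at least 1.36-fold lower after saline. The group means were 3.61 ± 0.01 in cyclophosphamide spermatids and 4.57 ± 0.20 in cyclophosphamide pachytene cells (SD, n = 5 each), with a fitted log2 difference of -0.96 ± 0.10 (SE, limma, adjusted p = 2.15e-07). In saline rats the means were 3.61 ± 0 in spermatids and 4.26 ± 0.25 in pachytene cells, with a difference of -0.65 ± 0.10 (SE, limma, adjusted p = 2.36e-05). The floor sets the spermatid values and their small spread, so these fitted differences are not measured folds. miR-351-3p also passed the detection filter only through the pachytene groups. With this filter and floor the direction was fixed in advance, so the SEs and p-values add no support to the detection counts.

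Its size depends on how dim values are treated: with the floor at 25% of its height it was -2.35 after cyclophosphamide and -2.32 after saline, and in the authors' deposited table, whose treatment of dim values is not given in the sources used here, -7.06 and -7.00. Within slides, after cyclophosphamide it was -1.06 within slide 1 and -0.90 within slide 2, and after saline -0.66 within slide 1 and -0.64 within slide 2. All of these but slide 1 after cyclophosphamide rest on a single spermatid array. In saline rats the call was lost within slide 1. The call was lost in both treatments when the background was corrected by normexp from the median spot signals, and the saline difference then turned to 0.30 (limma, adjusted p = 0.461).

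miR-322-5p, the strand of the cluster that shares its seed with miR-16-5p, was present in every sample. Its log2 signal was 4.67, 4.80, 4.78, 4.78 and 4.33 in cyclophosphamide spermatids (rats 14, 15, 16, 25 and 26) and 4.85, 4.72, 4.71, 5.59 and 4.74 in saline spermatids (rats 15, 16, 17, 25 and 28). In pachytene cells it was 4.87, 5.02, 4.90, 5.05 and 5.31 after cyclophosphamide and 4.68, 5.35, 5.09, 5.03 and 5.02 after saline, in the order of rats given above. The 5 cyclophosphamide spermatid values all lay below the 5 cyclophosphamide pachytene values, while the saline groups overlapped, saline spermatid rat 25 being the highest of all 20 samples. How common such a separation is among all tested miRNAs is not given here.

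Between cell types, miR-322-5p differed by -0.36 ± 0.16 in cyclophosphamide rats (means 4.67 ± 0.20 in spermatids and 5.03 ± 0.17 in pachytene cells, limma, adjusted p = 0.0645) and by -0.11 ± 0.16 in saline rats (4.92 ± 0.38 in spermatids and 5.03 ± 0.24 in pachytene cells, limma, adjusted p = 0.595). Neither passed the threshold of 0.05. On slide 1 and slide 2 alone the differences were -0.19 and -0.31 in cyclophosphamide rats and -0.17 and -0.32 in saline rats, all but the first resting on a single spermatid array. Without saline spermatid rat 25, whose array also enters the shared estimate of the spread, the cyclophosphamide difference of -0.36 passed at an adjusted p of 0.0164 (limma), and the saline difference was -0.28 (limma, adjusted p = 0.0757). With normexp and its offset the saline difference turned to 0.40 (limma, adjusted p = 0.241). Its second probe was dimmer and also had its lowest mean in cyclophosphamide spermatids, with 4.05 in cyclophosphamide spermatids, 4.28 in saline spermatids, and 4.42 and 4.40 in cyclophosphamide and saline pachytene cells.

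miR-450a-5p, from the hairpin farthest from Mir322, had its higher means in spermatids. Its log2 signal was 4.46, 4.13, 4.41, 4.30 and 3.82 in cyclophosphamide spermatids and 4.31, 4.26, 3.99, 4.88 and 4.35 in saline spermatids. In pachytene cells it was 3.92, 3.96, 3.96, 4.05 and 4.32 after cyclophosphamide and 3.88, 4.11, 3.92, 4.02 and 4.22 after saline. The groups overlapped in both treatments, with cyclophosphamide spermatid rat 26 the lowest and saline spermatid rat 25 the highest of the 20 samples, as for miR-322-5p.

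Between cell types, miR-450a-5p differed by 0.18 ± 0.14 in cyclophosphamide rats (means 4.23 ± 0.26 in spermatids and 4.04 ± 0.16 in pachytene cells, limma, adjusted p = 0.292) and by 0.33 ± 0.14 in saline rats (4.36 ± 0.33 in spermatids and 4.03 ± 0.14 in pachytene cells, limma, adjusted p = 0.0655). Neither passed, and without any scaling of the arrays the signs turned, to -0.18 and -0.09. On slide 1 and slide 2 alone they were 0.39 and 0.19 in cyclophosphamide rats and 0.31 and 0.20 in saline rats, all but the first resting on a single spermatid array. The saline difference passed without saline spermatid rat 17 (0.42, limma, adjusted p = 0.0209) and without cyclophosphamide spermatid rat 26 (0.33, limma, adjusted p = 0.0451), and it was 0.19 without saline spermatid rat 25 and saline pachytene rat 26. The second probe of miR-450a-5p had 0 of 50 spots well above background in each of the 4 groups, so the values rest on 1 probe. Whether that probe also reads miR-450b-5p was not tested.

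**Figure D3:**
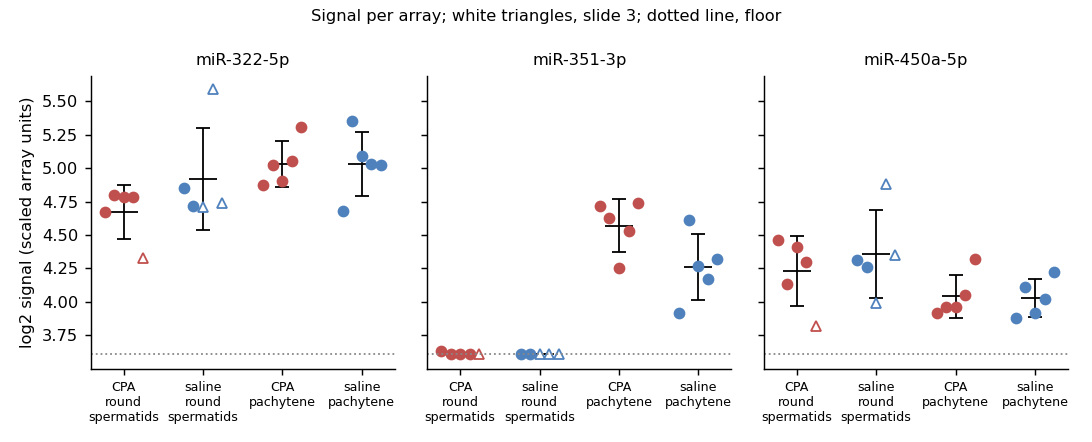
Each point is the log2 signal of 1 array, with the mean and SD of each group of 5 in black, the floor of 3.61 dotted, and the 4 arrays of slide 3 as white triangles. miR-351-3p lies at or next to the floor in all 10 spermatid samples and between 3.92 and 4.74 in the 10 pachytene samples, whereas the groups of miR-450a-5p overlap.

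The members' calls stand beside those of all miRNAs. In limma's test 1 of the 3 tested members was called between cell types in saline rats, where 48.4% of the 217 tested miRNAs were called, and 1 of 3 in cyclophosphamide rats, where 53.9% were. The called member was miR-351-3p each time, with spermatids at the floor. By direction, 30.9% were called higher and 23% lower in spermatids in cyclophosphamide rats, and 26.3% and 22.1% in saline rats. The median difference over all tested miRNAs was 0.06 in cyclophosphamide rats and 0.02 in saline rats.

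miR-322-5p and miR-450a-5p, the 2 members detected on all arrays, differed in their change between the cell types. Within each array, the log2 signal of miR-322-5p minus that of miR-450a-5p ran from 0.22 to 0.66 in cyclophosphamide spermatids and from 0.94 to 1.06 in cyclophosphamide pachytene cells, and the groups did not overlap. In saline rats it ran from 0.39 to 0.72 in spermatids and from 0.80 to 1.24 in pachytene cells, again with no overlap. The shift between cell types was -0.54 ± 0.08 (SE) in cyclophosphamide rats and -0.44 ± 0.11 in saline rats, each with an exact two-sided permutation p of 0.00794, the smallest that 252 splits of 5 against 5 arrays allow, and 0.0159 adjusted over the 4 such comparisons made.

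This within-array difference, which no scaling between arrays can move except through the floor, was chosen for a test with the values above already seen. How many other pairs of miRNAs separate the cell types in this way is not given here. The shift is therefore not shown to be particular to the cluster. The shift was negative in all the alternatives computed, from -0.67 to -0.13 in cyclophosphamide rats and from -0.53 to -0.21 in saline rats. Within slide 1 and slide 2 it was -0.59 and -0.50 in cyclophosphamide rats and -0.48 and -0.53 in saline rats. All but the first of these values rest on a single spermatid array, with too few arrays there for the exact test to pass. The shift passed the adjusted exact permutation test in 31 of 36 alternatives in cyclophosphamide rats and in 30 of 36 in saline rats. Among those that did not pass were both normexp corrections in cyclophosphamide rats (-0.13 and -0.26), the mean over all probes in saline rats (-0.28) and, in both, the authors' deposited table (-0.67 and -0.52).

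After the group means were subtracted, the 3 members still varied together to different degrees, which is given as a description over 20 arrays that share scaling and hybridisation. The correlation r of miR-322-5p with miR-450a-5p was 0.81, or 0.70 without saline spermatid rat 25. miR-322-5p with miR-351-3p gave 0.78 over the 10 pachytene arrays, and miR-351-3p with miR-450a-5p gave 0.50 over the same arrays. In spermatids miR-351-3p was at the floor and has no usable correlation.

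The miRNAs most like each member in this measure differed in part between members, with miR-199a-3p shared by miR-450a-5p and miR-322-5p. For miR-450a-5p they were miR-199a-3p and miR-199a-5p, known from mesenchymal cells, at r = 0.84 each, and miR-26a-5p at 0.82, with values of 0.91, 0.91 and 0.93 over the 10 spermatid arrays and 0.51, 0.48 and 0.28 over the 10 pachytene arrays. For miR-322-5p they were miR-152-3p at 0.64, miR-199a-3p at 0.62 and miR-10a-5p at 0.61, which gave 0.78, 0.76 and 0.84 over the spermatid arrays and 0.04, 0.15 and 0.32 over the pachytene arrays. For miR-351-3p the nearest was miR-877 at 0.73, before miR-3573-3p at 0.46 and miR-3085 at 0.45. With group means left in, the nearest to miR-351-3p were again miR-877 at 0.96, then miR-449a-3p at 0.91 and miR-652-3p at 0.87, but over the pachytene arrays alone these gave 0.77, 0.29 and -0.09. Those nearest to miR-322-5p were then let-7c-5p at 0.65, miR-99a-5p at 0.64 and let-7d-5p at 0.60, and those nearest to miR-450a-5p were miR-199a-5p at 0.78, miR-101a-3p at 0.77 and miR-199a-3p at 0.76. miR-877 was likewise detected on no spermatid array and on every pachytene array, and it was at least 1.99-fold lower in spermatids than in pachytene cells after cyclophosphamide and at least 1.89-fold lower after saline (limma, adjusted p = 5.51e-09 and 4.17e-08, with spermatids at the floor). These p-values carry the limit given for miR-351-3p.

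Markers of muscle, peritubular and mesenchymal cells moved with the cell fractions. Among all tested miRNAs, 30.9% were called higher in spermatids in cyclophosphamide rats and 26.3% in saline rats. Of 14 arms on the list, 8 were tested and 8 of 8 were higher in spermatids in each treatment, by a median of 1.60 in cyclophosphamide rats and 1.58 in saline rats. Their summed signal lay between 1960 and 3820 in cyclophosphamide spermatids, between 2360 and 3600 in saline spermatids, between 495 and 885 in cyclophosphamide pachytene cells and between 624 and 1250 in saline pachytene cells. The 2 with the smallest p were miR-133b-3p of striated muscle, at 1.48 ± 0.15 in cyclophosphamide and 1.57 ± 0.15 in saline rats, and miR-143-3p of smooth muscle, at 2 ± 0.23 and 1.81 ± 0.23 (limma, all adjusted p at or below 1.7e-06). miR-143-3p was detected on all 20 arrays, and miR-133b-3p on 5 of 5 in each spermatid group and 4 of 5 in each pachytene group. miR-143-5p was detected on 5 of 5 in each spermatid group, and on 0 and 2 of 5 in cyclophosphamide and saline pachytene cells. miR-133b-3p and miR-143-5p thus passed the filter only through spermatids. The pachytene means of miR-133b-3p were 3.63 and 3.67, near the floor of 3.61. Counts and p-values that include these arms carry the limit given for miR-351-3p. Of the 6 arms not tested, miR-133a-5p, miR-133b-5p, miR-145-3p and miR-214-5p were detected on no array, and miR-1-3p and miR-133a-3p on at most 1 array of a group. Lists of other cell types held called arms in both directions or few: of 4 spermatogonial arms tested, 1 was higher in spermatids in each treatment and 2 and 3 were lower in cyclophosphamide and in saline rats, of 3 Sertoli cell arms 1 was higher and 1 lower in each treatment, of 4 blood cell arms 2 and 1 were higher, and of 2 endothelial arms 1 and 0 were lower. Filter and floor also bear on these counts. The spermatogonial miR-146a-5p and the Sertoli cell miR-132-3p passed the filter only through spermatids, with pachytene means of 3.61. The spermatogonial miR-222-3p passed only through pachytene cells, with spermatid means of 3.65 and 3.63. Their directions carry the limit given for miR-351-3p. The part of any of these cell types in the values of miR-450a-5p and miR-322-5p was not tested.

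Seed relatives of miR-322-5p from autosomes gave other values between the cell types. All 4 of them passed the test as higher in spermatids in both treatments, with a median of 1.18 in cyclophosphamide rats and 1.07 in saline rats. Among all tested miRNAs, 30.9% and 26.3% were called higher, in the same order. miR-497-5p and miR-195-5p are neighbours on chromosome 10, and miR-15b-5p and miR-16-5p on chromosome 2. The 4 calls therefore do not stand for 4 separate places in the genome. miR-497-5p differed by 1.89 ± 0.18 and 1.70 ± 0.18, miR-195-5p by 1.61 ± 0.15 and 1.52 ± 0.15, miR-15b-5p by 0.76 ± 0.17 and 0.62 ± 0.17, and miR-16-5p by 0.51 ± 0.13 and 0.41 ± 0.13, in cyclophosphamide and in saline rats (limma, all adjusted p at or below 0.0153). The summed signal of these 4 ran from 4210 to 6140 in cyclophosphamide spermatids and from 3960 to 5810 in saline spermatids, above the ranges of 2740 to 3940 in cyclophosphamide and 2840 to 3920 in saline pachytene cells. The difference between miR-322-5p and these relatives was not tested.

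The relatives of miR-351-5p showed no called difference. miR-125a-5p differed between the cell types by -0.22 ± 0.15 in cyclophosphamide rats and -0.04 ± 0.15 in saline rats, and miR-125b-5p by -0.08 ± 0.14 and -0.10 ± 0.14, none past the threshold (limma, adjusted p between 0.21 and 0.834).

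Other X-linked miRNAs are given beside the cluster. In the miR-188 cluster, 4 of 10 arms were tested; 1 was lower in spermatids and 0 higher in each treatment, and the lower one was miR-500-3p at -0.84 ± 0.11 in cyclophosphamide and -0.77 ± 0.11 in saline rats (limma, adjusted p = 1.53e-06 and 4.45e-06). In the X-linked clusters known for expression in spermatogenesis, such as that of miR-547-3p, 23 of 27 arms were tested, 13 were lower and 2 higher in spermatids in each treatment, and the median was -0.33 in both. Among all tested miRNAs, 23% were called lower and 30.9% higher in cyclophosphamide rats, and 22.1% and 26.3% in saline rats. miR-547-3p itself differed by -1.80 ± 0.17 in cyclophosphamide and -1.73 ± 0.17 in saline rats (limma, adjusted p = 8.44e-08 and 1.17e-07). Filter and floor fixed the direction of miR-351-3p in advance, so it is not set against that of these arms. Some of these arms have the same limit. miR-201-3p and miR-547-5p passed the detection filter only through the pachytene groups, with spermatid means from 3.62 to 3.66. No test set the cluster apart from these arms.

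**Figure D4:**
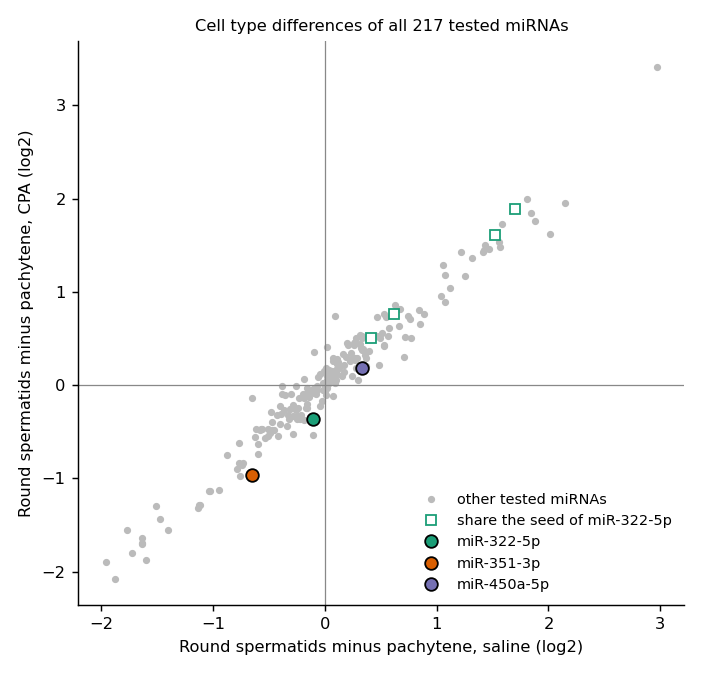
Each point is 1 of 217 tested miRNAs, with its round spermatid minus pachytene difference in log2 signal in saline rats on the x axis and in cyclophosphamide (CPA) rats on the y axis. miR-351-3p lies at -0.65 and -0.96, miR-322-5p at -0.11 and -0.36 and miR-450a-5p at 0.33 and 0.18, and the squares are the 4 seed relatives of miR-322-5p, all higher in spermatids.

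Whether chronic cyclophosphamide changed the cluster was asked in each cell type. No member passed the test, and neither did any of the 217 miRNAs tested (0% called in each cell type and for the difference between them). In pachytene cells 1 miRNA had an unadjusted p under 0.05, in spermatids 5 did and for the difference of the effects 1 did.

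The 1 in pachytene cells was miR-351-3p. Its mean was 4.57 ± 0.20 in cyclophosphamide rats and 4.26 ± 0.25 in saline rats (SD, n = 5 each), a difference of 0.32 ± 0.10 or 1.25-fold, with a 95% confidence interval from 0.10 to 0.53 (limma, unadjusted p = 0.00649, adjusted p = 1). The groups overlapped, since saline rat 16 at 4.61 lay above 2 of the 5 cyclophosphamide samples. Within slide 1 the difference was 0.41 and within slide 2 it was 0.25, and leaving out single arrays gave values from 0.23 to 0.40. Other processing moved it further: it was 0.09 in the authors' deposited table, 0.15 without scaling, 0.16 with the mean over all probes, and 0.48 and 0.76 with normexp with and without its offset, called in none of these. The shared spread of the model includes spermatid arrays held at the floor, which narrows the interval above and lowers its p. Over the pachytene arrays alone the SE was 0.14 (limma, unadjusted p = 0.045, adjusted p = 0.572). With the floor at 25% of its height the unadjusted p was 0.0752 (limma).

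miR-322-5p in pachytene cells differed by -0.01 ± 0.16 between cyclophosphamide and saline rats (95% confidence interval -0.34 to 0.33, limma, adjusted p = 1), and miR-450a-5p by 0.01 ± 0.14 (-0.29 to 0.31, limma, adjusted p = 1). The intervals run from 0.792-fold to 1.25-fold for miR-322-5p and from 0.819-fold to 1.24-fold for miR-450a-5p. With 5 arrays a group, changes within these limits are not excluded. The spacing between the 2 members stayed close as well: their within-array difference was 0.99 ± 0.05 in cyclophosphamide and 1 ± 0.20 in saline pachytene cells (SD, n = 5 each, exact permutation p = 0.841).

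In round spermatids miR-322-5p differed by -0.25 ± 0.16 between cyclophosphamide and saline rats (95% confidence interval -0.58 to 0.08, limma, adjusted p = 0.848). The value moved with slides and with single arrays. On slide 1 alone it was -0.10, on slide 2 it was 0.05 and on slide 3 it was -0.69, and it was -0.03 without slide 3. Slide 2 sets a single array against a single array, and slides 1 and 3 each have a single array in 1 of the treatments. Without saline rat 25, which is on slide 3, the difference was -0.08, and with the slide as a block over all arrays it was -0.26. miR-450a-5p differed by -0.13 ± 0.14 (-0.43 to 0.17, limma, adjusted p = 0.854), with 0.02, 0.04 and -0.58 within the 3 slides in the same order and -0.0013 without saline rat 25. miR-351-3p was at the floor in both groups and gave no usable value. The within-array difference of miR-322-5p and miR-450a-5p was 0.45 ± 0.17 in cyclophosphamide and 0.57 ± 0.15 in saline spermatids, a shift of -0.12 (exact permutation p = 0.246).

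The difference of the cyclophosphamide effects, spermatids minus pachytene cells, was -0.25 for miR-322-5p and -0.15 for miR-450a-5p (limma, adjusted p = 0.998 each). For miR-351-3p it was -0.31, a value that the floor in spermatids holds close to the pachytene difference with its sign turned.

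The seed relatives of miR-322-5p had 0 of 4 called after cyclophosphamide in either cell type, with medians of -0.01 in spermatids and -0.15 in pachytene cells, beside medians of 0.04 and 0.01 over all tested miRNAs in the same order.

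**Figure D5:**
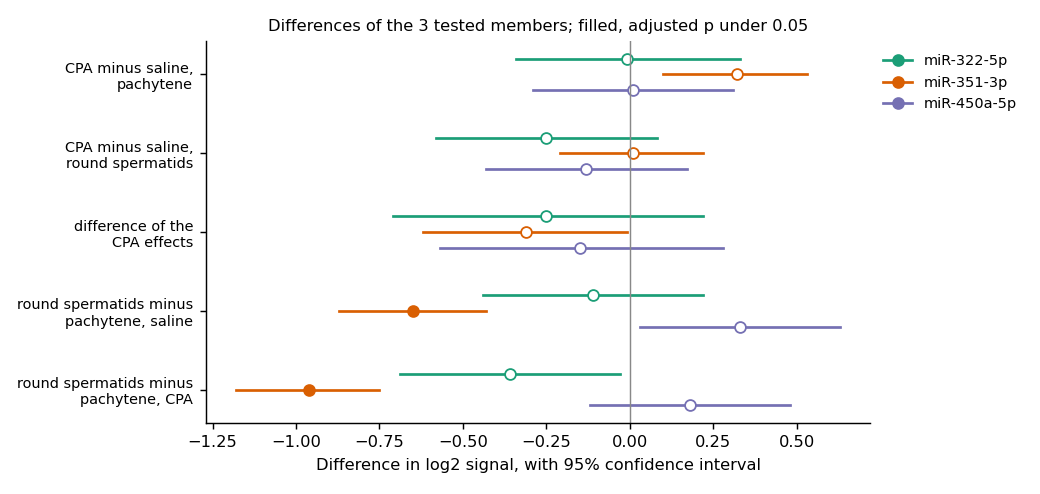
For each of the 5 comparisons, points give the difference in log2 signal of the 3 tested members and lines the 95% confidence interval, filled points being past an adjusted p of 0.05. Only miR-351-3p between cell types is filled, at -0.65 in saline and -0.96 in cyclophosphamide (CPA) rats.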

How the data were processed

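MiRNA was labelled with Cy3 from 100 ng of total RNA, extracted with TRIzol and RNeasy, per the labels' protocols. The deposited scanner files hold linear spot intensity values, without scaling between arrays, after background subtraction; the submitters' processing notes name Agilent Feature Extraction 11.5.1.1. The deposited series table holds log2 values of the authors, whose normalization is not given in the sources used here. It served as an alternative, with 3 members found under older names. One file's processed signal was rounded and used as it stands.

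Each array was scaled by the 75th percentile of its processed signal over 2176 spots (well above background on every array) and returned to a shared level. Values under 12.17 (log2 3.61) were raised to it before log2 was taken; this floor is the median over arrays of the dimmest spot well above background. Control and outlier spots were dropped, spots of a probe averaged, and the brightest probe stood for a miRNA. The 217 miRNAs of 677 that were detected throughout at least 1 group were tested. One limma 3.58.1 model (R 4.3.3) held 4 group means over 20 arrays with 16 residual degrees of freedom. P-values were adjusted by Benjamini-Hochberg over the 217. A bound sets the bright group's mean against the dim group's, taking on each dim array whichever is higher, the miRNA's signal or the dimmest spot well above background. The within-array difference of miR-322-5p and miR-450a-5p was tested by exact permutation. Normexp (offset 50) used the median spot signals, since mean signals are not columns of these files. The code was tested on simulated data. Members, lists and tests were chosen with earlier results of these data known. Named miRNAs are all members, up to 2 members per list by smallest p, and the 3 miRNAs most correlated with each tested member, with and without group means subtracted. Named besides, after their values were seen, are miR-15b-5p and miR-16-5p, miR-125a-5p, miR-125b-5p, miR-143-5p, miR-547-5p and the muscle and mesenchymal arms detected on no array or few. Mature and hairpin sequences and positions are from RefSeq, GRCr8. The array design names an older build and gave no position used here. Figures were drawn with Python 3.11.15.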

Additional observations from a re-analysis of the deposited data

Results flagged for a closer look

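In 10 sets of a tested member and a group of 5 samples, 2 samples lay far from the other 4, where chance gives about 1 in 20. The log2 signal of miR-322-5p was 4.33 in cyclophosphamide round spermatids of rat 26, with a gap to the nearest sample of 0.732 of the group's range. It was 5.59 in saline round spermatids of rat 25, with a gap of 0.844 of the range. Both arrays are on slide 3, and on the same arrays miR-450a-5p had the lowest value of the 20, 3.82, and the highest, 4.88. The cause was not tested.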

How the results depend on the processing

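Counts of called members were 0 under every alternative for the 3 cyclophosphamide comparisons. Between cell types the count was 1 in each treatment. With normexp, with or without its offset, and over miRNAs detected on all arrays, it was 0 in both treatments. In the last setting miR-351-3p is left out by construction, and with normexp the cause was not tested. With the offset miR-351-3p in saline rats turned to 0.30. Within slide 1 the saline count was 0. Leaving out single arrays gave 1 to 2 in each treatment. The cyclophosphamide count was 2 with the percentile over all spots, with only the groups compared, without slide 3, and without saline spermatid rat 25 and saline pachytene rat 26, where the second member was miR-322-5p except without slide 3, where it was miR-450a-5p (adjusted p = 0.0279). Normexp without the offset, the settings without slide 3 and without these 2 arrays, the background-subtracted signal and the within-array difference were added after seeing the data. A replicate block, with the rat as a random block (consensus correlation 0.098), changed no member's call and gave 0.33 for miR-450a-5p in saline rats. Spermatid and pachytene arrays of one treatment form 6 pairs with the same number, 2 of them from the 2 pachytene arrays numbered 16, which the block kept as rats of their own. In 3 of the 6 the correlation was above 0.1 (from -0.30 to 0.22), which cannot settle whether equal numbers mark the same rat. The main fit did not take the numbers as pairs. The 7 forms that were not tested lay near background, where a change could not be seen.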
